A study of Mus musculus with 6 samples.

Results

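In all, 10 genes of mitochondrial fusion, fission and mitophagy were followed through RNA-seq of the substantia nigra (SN) of MitoPark mice, a transgenic mouse model of Parkinson's disease (PD). They were taken by symbol, and all 10 were found among the 24054 genes of the count table. They comprise the fusion genes Mfn1, Mfn2 and Opa1 with the protease gene Oma1, the fission genes Dnm1l, Mff and Fis1, and the mitophagy receptor genes Bnip3, Bnip3l and Fundc1. Polyadenylated RNA of 3 MitoParks and 3 littermate controls was sequenced, at 16 to 17 weeks of age by the series' design text and 17 weeks by the paper. MitoParks were Dat+/Cre and Tfam LoxP/LoxP on a C57BL/6 background, so that Cre under the dopamine transporter (DAT) gene deleted Tfam, the gene of mitochondrial transcription factor A, in DAT-expressing cells alone. By the methods, littermate controls were Dat+/+ and Tfam+/LoxP, so they carried a floxed Tfam allele but no Cre. The methods also allow such controls to come from litters of the MitoPark or of the parental strain. No mouse was treated, and the sex of single mice was not among the labels used here. The deletion concerns dopaminergic (DAergic) neurons, whereas the RNA came from all cells of the dissected tissue, in which fewer cells of a type and less RNA per cell cannot be told apart.

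Mitochondria fuse and divide continuously, and the balance sets their shape, their transport along axons and the separation of damaged parts. Mitofusins join the outer membranes and OPA1 joins the inner membranes, while the dynamin-related GTPase DRP1, encoded by Dnm1l, constricts the organelle after recruitment to its surface. In mitophagy, damaged mitochondria are enclosed by autophagosomes, either after the kinase PINK1 has set off their marking with ubiquitin or through outer membrane receptors that bind Atg8 family proteins directly. Long axons make DAergic neurons dependent on these processes, and Pink1 is a gene of inherited PD.

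Libraries held between 8140777 and 10528602 expected counts in all. Tfam was at 40.3, 44.4 and 45.5 CPM (counts scaled to a common library total with TMM normalization) in littermate controls 1 to 3 and at 32.7, 33.1 and 33.2 CPM in MitoParks 1 to 3, so that the groups did not overlap (log2 fold change -0.40). Of 6 DAergic neuron markers, 5 had counts in all 6 mice, and Pitx3 was without counts in MitoPark 1. Their summed level was 322, 354 and 1030 CPM in littermate controls 1 to 3 and 190, 338 and 323 CPM in MitoParks 1 to 3. Littermate control 3 was the highest and MitoPark 1 the lowest, while littermate controls 1 and 2 lay near MitoParks 2 and 3. Slc6a3, the DAT gene itself, was at 72.6, 65.3 and 383.4 CPM in littermate controls 1 to 3 and at 13.3, 51.1 and 40.9 CPM in MitoParks 1 to 3. It was the only one of the 6 called, with a log2 fold change of -2.30, which was -0.97 without littermate control 3. With robust dispersion in edgeR it was not called (unadjusted p = 0.0859). MitoParks were Dat+/Cre and littermate controls Dat+/+, so genotype at this gene and the number of DAergic neurons cannot be told apart in its level. In the 4 oligodendrocyte markers, the sum lay between 6020 and 16200 CPM and between 8280 and 13800 CPM. The part of these differences between mice in cell makeup in the values below was not tested.

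In the SN of MitoParks, none of these 10 genes of fusion, fission and mitophagy was called. A call took a fold change above 1.5 together with p below 0.05 before adjustment in edgeR's quasi-likelihood test. Called were 0 of 10 genes, beside 0.577% of the 14568 genes tested (0.378% higher and 0.199% lower). Without the fold change, 0 of the 10 genes had p below 0.05 before adjustment, as did 0 with edgeR's exact and likelihood ratio tests, DESeq2 and limma-voom, beside 1.11% of all genes in the quasi-likelihood test. The 2 groups overlapped for each of the 10 genes, and they did not overlap for 4.71% of tested genes. With shares this low across the table, 0 of 10 genes does not set these genes apart from it. Fundc1 had the smallest of the 10 p-values, 0.313 before adjustment. After Benjamini-Hochberg adjustment over the tested genes, the edgeR quasi-likelihood value was 0.999 for all 10. It was also 0.999 for Tfam and Slc6a3, and no tested gene had a smaller one.

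The intervals around these differences were narrow for genes with many counts. They bound the level in the whole tissue and not a change within DAergic neurons alone, which was not measured. For 9 of the 10 genes the 95% interval of the fold change, MitoPark over littermate control, lay within 1.5-fold in both directions, which was so for 66.5% of all tested genes. Oma1, the gene with the fewest counts, was the exception. The log2 fold changes of the 10 genes ran from -0.14 to 0.18, with 4 above 0 and 6 below, and their median was -0.02 beside -0.0047 for all tested genes. The median absolute log2 fold change was 0.075 for the 10 genes and 0.0861 for all tested genes.

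**Figure D1:**
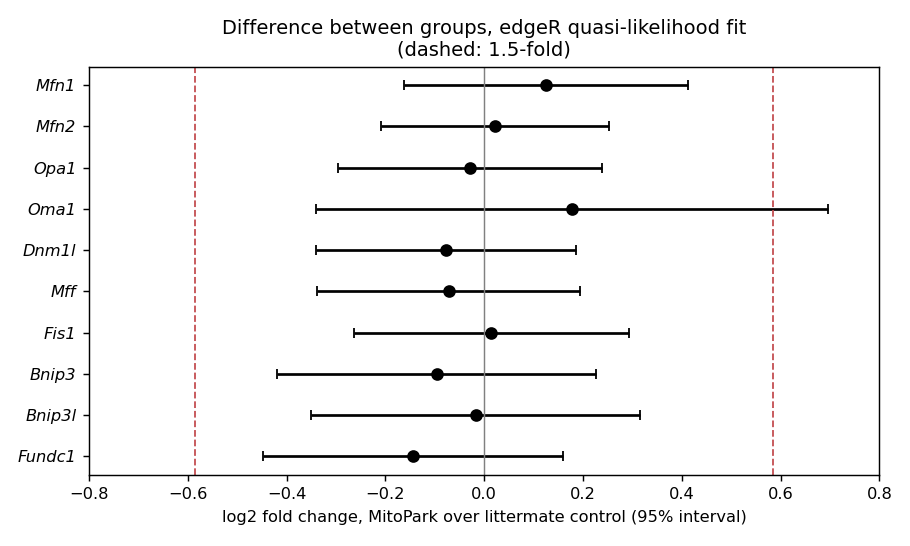
Log2 fold change of the 10 genes, MitoPark over littermate control (x axis), with the 95% interval from edgeR's quasi-likelihood fit as bars and 1.5-fold as dashed lines (n = 3 mice per group). All 10 intervals hold 0, and only that of Oma1, which reaches 0.69, crosses a dashed line.

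Among the fusion genes, Mfn1 and Mfn2 encode the mitofusins, GTPases of the outer membrane. Mfn1 was at 129.6, 120.2 and 141.3 CPM in littermate controls 1 to 3 and at 129.5, 130.4 and 166.8 CPM in MitoParks 1 to 3. MitoPark 3 stood above all littermate controls, and the other two MitoParks lay inside their range. The log2 fold change of Mfn1 was 0.13 (standard error 0.13), with a 95% interval from -0.16 to 0.41 (edgeR quasi-likelihood, unadjusted p = 0.352). Mfn2 stood at 219.5, 213.8 and 208.3 CPM in littermate controls and at 234.6, 217.1 and 199.9 CPM in MitoParks. The MitoParks lay on both sides of a tight control group, whose coefficient of variation was 2.62%. Its log2 fold change was 0.02 (standard error 0.10), and the 95% interval from -0.21 to 0.25 corresponds to a change between -13.5% and 19.2%. The ratio of Mfn1 to Mfn2 counts, which needs no scaling between libraries, was 0.591, 0.562 and 0.679 in littermate controls and 0.552, 0.601 and 0.834 in MitoParks. The groups overlapped in this ratio as well (exact two-sided permutation test, p = 0.8, where 3 mice against 3 cannot give less than 0.1).

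Opa1, the inner membrane fusion GTPase, was at 213.5, 202.2 and 207.6 CPM in littermate controls 1 to 3 and at 195.3, 235.1 and 180.7 CPM in MitoParks 1 to 3. Littermate controls differed little from each other, whereas MitoPark 2 was above and MitoParks 1 and 3 were below all of them. For Opa1 MitoParks differed by -0.03 on the log2 scale (standard error 0.12) with a 95% interval from -0.30 to 0.24. Oma1 encodes a stress-activated protease that cleaves OPA1. It had only 43 to 84 counts per mouse, and stood at 4.79, 7.98 and 6.45 CPM in littermate controls and at 7.31, 6.57 and 7.94 CPM in MitoParks. Littermate control 1 was the lowest mouse and all MitoParks lay between the second and the highest value of the group of controls. With a standard error of 0.23, the log2 fold change of 0.18 for Oma1 had a 95% interval from -0.34 to 0.69. This corresponds to a change between -21.0% and 61.9%, so both a fall and a rise of Oma1 lie within these bounds. The coefficient of variation was 25% among littermate controls and 9.39% among MitoParks, and counting error alone gives 15.2% at the lowest Oma1 count.

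Dnm1l encodes DRP1, the GTPase that divides mitochondria, and had the most counts of the 10 genes. Its level was 416.3, 395.5 and 424.5 CPM in littermate controls 1 to 3 and 359.5, 438.9 and 373.1 CPM in MitoParks 1 to 3. As for Opa1, MitoPark 2 was the highest mouse and MitoParks 1 and 3 were the lowest. On the log2 scale Dnm1l differed by -0.08 (standard error 0.12), with a 95% interval of -0.34 to 0.19. The ratio of Opa1 to Dnm1l, of inner membrane fusion to fission GTPase, was 0.513, 0.511 and 0.489 in littermate controls and 0.543, 0.536 and 0.484 in MitoParks. The groups overlapped in this ratio (exact two-sided permutation test, p = 0.5).

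Mff and Fis1 encode outer membrane proteins of fission, of which MFF is a main receptor of DRP1. Mff stood at 160.8, 181.6 and 178.0 CPM in littermate controls and at 167.6, 183.6 and 143.8 CPM in MitoParks. MitoPark 3 was the lowest of the 6 mice and MitoPark 2 the highest. For Mff MitoParks differed by -0.07 on the log2 scale (standard error 0.12, 95% interval -0.34 to 0.19). Fis1 stood at 92.4, 122.8 and 115.0 CPM in littermate controls and at 116.2, 105.0 and 112.6 CPM in MitoParks, all 3 of them within the range of the littermate controls. For Fis1 the log2 fold change was 0.01 (standard error 0.12, 95% interval -0.26 to 0.29). Without littermate control 1, the lowest mouse, it was -0.09.

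**Figure D2:**
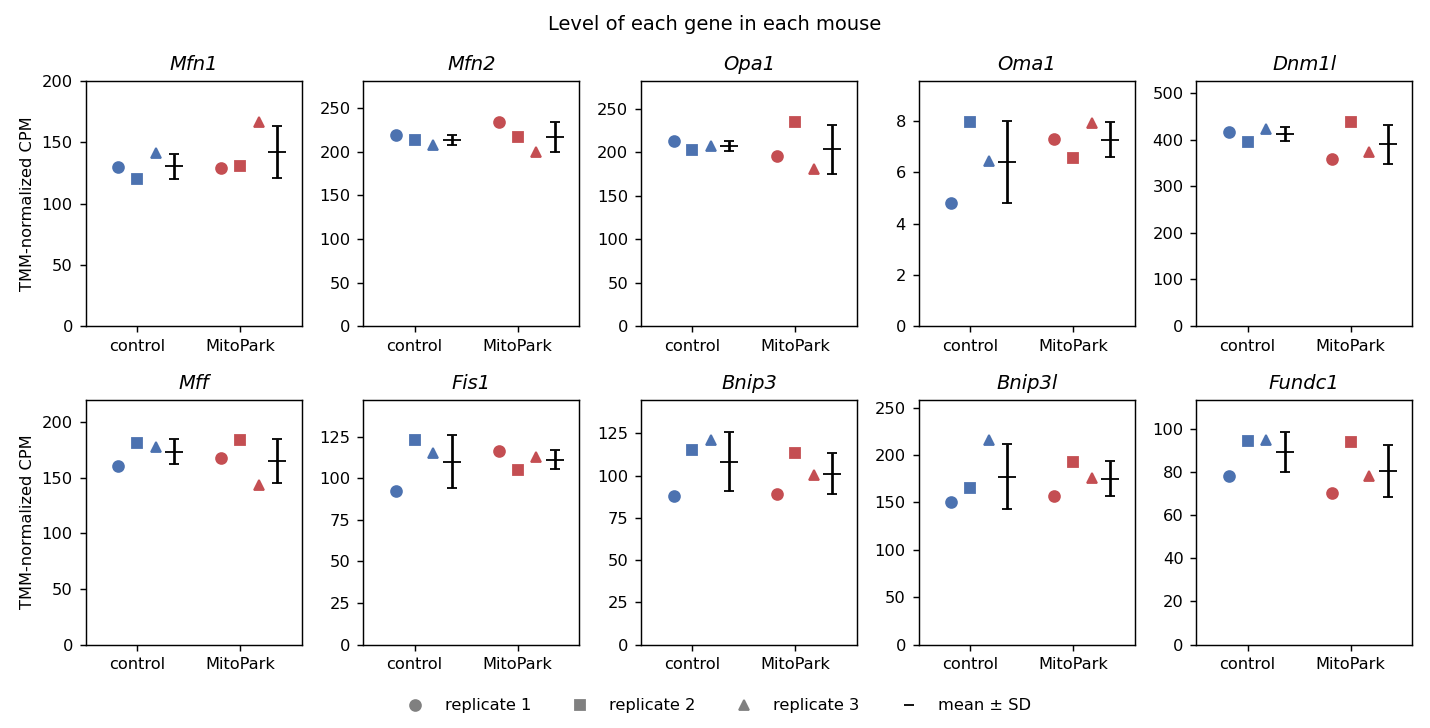
TMM-normalized CPM (y axis, from 0) of each gene in each mouse, with littermate controls in blue and MitoParks in red, replicates 1 to 3 as circle, square and triangle, and the mean ± SD of each group (n = 3) in black. The groups overlap in all 10 panels, and Oma1 has the lowest level, at 4.79 to 7.98 CPM.

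Bnip3 and Bnip3l encode related receptors of the outer mitochondrial membrane, of which BNIP3L is also named NIX, and both genes are known for induction under hypoxia. Bnip3 was at 88.2, 115.2 and 120.9 CPM in littermate controls 1 to 3 and at 89.4, 113.5 and 100.5 CPM in MitoParks 1 to 3. In each group replicate 1 was the lowest, and each MitoPark lay inside the range of the littermate controls. Its log2 fold change was -0.10 (standard error 0.14, 95% interval -0.42 to 0.23). Bnip3l stood at 150.5, 165.7 and 215.5 CPM in littermate controls and at 156.4, 193.0 and 175.9 CPM in MitoParks. Littermate control 3, the mouse with the highest DAergic and oligodendrocyte marker sums, was also the highest in Bnip3l. It was the highest as well in summed neuron (4110 CPM), microglia (159 CPM) and endothelium (131 CPM) markers. In astrocyte, red cell and striatal projection neuron markers it was not the highest. The part of cell makeup in the Bnip3l level of this mouse was not tested. The log2 fold change of Bnip3l was -0.02 (standard error 0.15, 95% interval -0.35 to 0.32), and 0.15 without that mouse. The ratio of Bnip3l to Bnip3 was 1.71, 1.44 and 1.78 in littermate controls and 1.75, 1.7 and 1.75 in MitoParks (exact two-sided permutation test, p = 0.7). Adjusted by the Benjamini-Hochberg method over the 3 ratios computed, the p was 0.8 for each.

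Fundc1 encodes another outer membrane receptor, which binds LC3 under hypoxia. It was at 78.4, 94.4 and 94.7 CPM in littermate controls 1 to 3 and at 70.1, 93.8 and 78.1 CPM in MitoParks 1 to 3. Of the MitoParks, 2 were below all littermate controls, MitoPark 3 by a margin smaller than the spread of either group, and MitoPark 2 was level with littermate controls 2 and 3. The log2 fold change of Fundc1 was -0.14 (standard error 0.14), the lowest of the 10 genes, with a 95% interval from -0.45 to 0.16 or a change between -26.7% and 11.7% (exact two-sided permutation test, p = 0.2). Without MitoPark 2 it was -0.26, with an unadjusted edgeR quasi-likelihood p of 0.076. The MitoParks left in that fit, 1 and 3, had lower library totals than littermate controls 2 and 3. Across the table, 657 genes had p below 0.05 before adjustment in that fit, beside 161 with all 6 mice.

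Bnip3 and Fundc1 had the most similar pattern over the 6 mice of the 45 pairs among the 10 genes, with a Pearson r of 0.93 of log2(CPM + 0.1), and an r of 0.94 after the mean of each group was taken out. Both genes were also lower in each of the 3 libraries with the lowest totals, as given below. The part of library depth in this r was not tested. The pair of Oma1 and Fis1 had a lower r over the 6 mice (0.90) but a higher r of 0.95 with the group means taken out.

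The window of 300 bases around the RefSeq start site of Bnip3, 250 before and 50 after, is shown for the hypoxia regulation this gene is known for, with capitals for ACGTG and GCGTG, the core letters of hypoxia response elements, on either strand. The sequence is RefSeq's on GRCm38.p6, 5′ to 3′ on the strand of the gene, at chr7:138909457-138909756 (minus strand).
Bnip3: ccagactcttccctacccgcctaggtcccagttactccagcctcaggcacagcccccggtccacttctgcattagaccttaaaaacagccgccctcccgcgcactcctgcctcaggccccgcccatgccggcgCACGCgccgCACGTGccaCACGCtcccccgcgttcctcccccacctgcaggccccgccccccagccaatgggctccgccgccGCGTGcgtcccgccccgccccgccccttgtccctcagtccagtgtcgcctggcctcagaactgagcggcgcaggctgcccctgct
It held 2 matches to ACGTG, which are both strands of a single CACGTG, and 3 to GCGTG. A match describes letters and is not a binding site. ACGTG or GCGTG was in 43.8% of the 32851 start-site windows of that table and in 7 of the 14 windows of the 9 genes found in it, so the letters are common. These 7 windows belong to 4 of the 9 genes, Mfn2, Dnm1l, Fis1 and Bnip3, and those of Mfn2 overlap each other. Bnip3l was the gene without a window.

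By r over the 6 mice, Oma1 and Fis1 (r = 0.90), Opa1 and Dnm1l (r = 0.85) and Bnip3 and Bnip3l (r = 0.83) followed Bnip3 and Fundc1, and at the other end were Mfn1 with Mff (r = -0.77) and Mfn1 with Mfn2 (r = -0.69). Of the 45 pairs, 28 had an r above 0 and 17 below, with a median of 0.23. These values describe 6 libraries that share scaling and tissue makeup, and are given without a test. MitoPark 3 combined the highest Mfn1 with the lowest Mfn2, Opa1 and Mff, whereas littermate control 1 had the lowest Oma1, Fis1, Bnip3 and Bnip3l. Among 10439 other genes with a mean above 10 CPM, those most like Bnip3 over the 6 mice were Chchd3 (r = 0.99), Bend6 and Cyp20a1. Most like Dnm1l were Pank3, Xiap and Reps2, and most like Mfn2 were Cul4a, Kcnc4 and Ebna1bp2, each with an r of 0.99 or more. They are the highest of 10439 values over only 6 mice, where an r this high can arise without any link between genes.

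**Figure D3:**
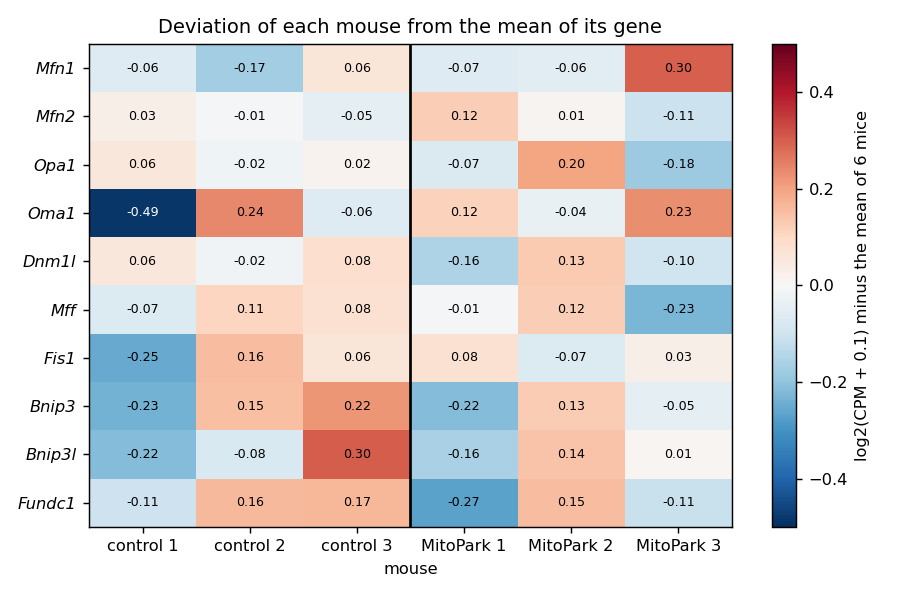
Deviation of each mouse (columns) from the mean of the 6 mice for each gene (rows), on the log2(CPM + 0.1) scale, with red above and blue below the mean and the value printed in each cell. No row separates the 3 littermate controls from the 3 MitoParks, and the largest deviation, -0.49, is that of Oma1 in littermate control 1.

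Library depth moved with 3 of the genes. Mff, Bnip3 and Fundc1 were lower in each of the 3 libraries with totals up to 8914308, littermate control 1 and MitoParks 1 and 3, than in each of the 3 with totals from 10023223. The same was so for 9.24% of all tested genes, and 8.49% were higher in all of the shallower libraries. The means of the shallower and the deeper libraries were 92.7 and 116.6 CPM for Bnip3, 75.5 and 94.3 CPM for Fundc1, and 157.4 and 181.1 CPM for Mff. Within the shallower libraries Fundc1 differed by -0.08 between MitoParks and the littermate control, and within the deeper ones by -0.01, on the log2(CPM + 0.1) scale. For Bnip3 the same differences were 0.10 and -0.06. A fit with the shallower and deeper libraries as a term was chosen after the data were seen. In it the log2 fold change of Fundc1 was -0.05 (standard error 0.10), that of Mff was -0.0082 (standard error 0.10) and that of Bnip3 was 0.02 (standard error 0.11). These 3 genes were picked because they separate by this split, in which MitoParks 1 and 3 are among the shallower libraries. An upward shift follows from that choice, so this fit does not test the part of depth.

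Levels of different genes were compared per length, as RPKM over the longest coding transcript of each gene in GENCODE M21, as mean ± SD of the 6 mice. Fis1 was at 117 ± 11.2 RPKM and Dnm1l at 101 ± 6.7 RPKM, followed by Mff at 80.9 ± 6.41, Bnip3 at 59.4 ± 7.26, Bnip3l at 53.9 ± 6.77 and Mfn2 at 49.6 ± 2.87 RPKM. Fundc1 (42.7 ± 4.91 RPKM), Opa1 (33.0 ± 2.64 RPKM) and Mfn1 (29.9 ± 3.8 RPKM) were lower, and Oma1 was the lowest at 3.57 ± 0.643 RPKM. The ranges over mice separated Dnm1l from Mff, Mff from Bnip3 and Mfn1 from Oma1, and overlapped for all other neighbours in this order. Over the shortest coding transcripts Dnm1l came first, at 373 RPKM, and Fundc1 moved up to 189 RPKM, so the order depends on the length used, though Mfn1 and Oma1 were the lowest with both. Exons of Dnm1l, Mff and Bnip3 overlap exons of a gene on the opposite strand in GENCODE M21 (Gm49521, C430014B12Rik and Gm45507). The libraries kept the strand, but whether the counting used it is not given in the sources used here, so a part of these counts could come from the partner.

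The partners of the 10 genes were examined as lists, with 58 of the 61 genes reported here tested. Of the reported genes, none was called (0 of 58, beside 0.577% of all tested genes), 0 had p below 0.05 before adjustment (edgeR quasi-likelihood), and the smallest was 0.129. With edgeR's exact and likelihood ratio tests, DESeq2 and limma-voom, 0 of these partners were called as well. Their log2 fold changes were above 0 for 23 and below 0 for 35 genes, with a median of -0.02. Fam73b (Miga2), a fusion factor of the outer membrane, and Ddit4, a stress-responsive inhibitor of mTORC1, were the 2 partners whose groups did not overlap, beside 4.71% of all tested genes, both lower in each MitoPark, and they are named after their values were seen. Fam73b stood at 71.5 ± 0.346 CPM in littermate controls and 67.3 ± 5.24 CPM in MitoParks (SD, n = 3), with an unadjusted edgeR quasi-likelihood p of 0.411.

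Of the 10 genes of fusion partners and OPA1 processing, 8 were below 0 on the log2 fold change scale, with a median of -0.07. They ran from -0.18 for Pld6, a phospholipase of the outer membrane, to 0.12 for Spg7, a subunit of an inner membrane protease. Of 12 tested fission partners, 8 were above 0 and the median was 0.03. The lowest was Pgam5, a phosphatase, at -0.10, and the highest was Mief2, an adaptor that recruits DRP1, at 0.26. Mief2 lay between 12.3 and 12.7 CPM in littermate controls and between 12.6 and 16.7 CPM in MitoParks, 2 of which were above all littermate controls (edgeR quasi-likelihood, unadjusted p = 0.129). The 5 Atg8 family genes, whose products bind the receptors, ran from -0.10 (Map1lc3a) to 0.03 (Gabarap). The 4 transport genes, which link mitochondria to motor proteins, ran from -0.15 (Rhot1) to 0.15 (Trak2).

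In the list of the PINK1 pathway and other mitophagy receptors, 15 of the 16 genes reported here were tested, 7 were above and 8 below 0, and the median was -0.0012. The highest was Optn, an adaptor that links ubiquitin-marked mitochondria to Atg8 proteins, at 0.14, and the lowest was Fundc2, a relative of Fundc1, at -0.10. Optn was at 33.97, 31.92 and 38.51 CPM in littermate controls 1 to 3 and at 34.98, 42.46 and 37.42 CPM in MitoParks 1 to 3. MitoPark 2 was above all littermate controls, and the groups overlapped (edgeR quasi-likelihood, unadjusted p = 0.309). Pink1, the kinase gene of the pathway, stood at 346.6 ± 26.7 CPM in littermate controls and 360.6 ± 26.3 CPM in MitoParks (SD, n = 3), and is named after its values were seen.

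The 12 tested hypoxia-responsive genes, set beside Bnip3 and Bnip3l, gave 4 log2 fold changes above and 8 below 0, with a median of -0.05. They ran from -0.16 for Pgk1, a glycolytic kinase, to 0.08 for Kdm3a, a histone demethylase. Ddit4 stood at 42.3 ± 0.186 CPM in littermate controls and 38.0 ± 3.02 CPM in MitoParks (SD, n = 3), which is -0.16 on the log2 scale, with an unadjusted edgeR quasi-likelihood p of 0.199.

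**Figure D4:**
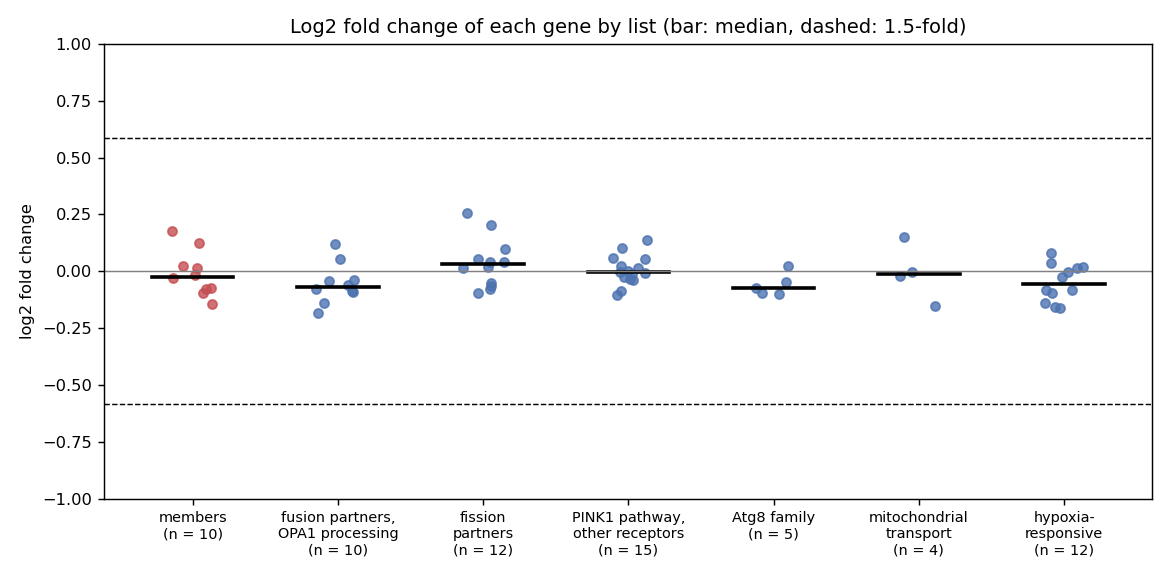
Log2 fold change, MitoPark over littermate control (y axis), of each tested gene of the 10 genes (red) and of the 6 partner lists (blue), with list medians as bars and 1.5-fold as dashed lines. List medians lie between -0.07 and 0.03, and no point lies beyond a dashed line, with Mief2 the highest at 0.26.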

How the data were processed

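Poly(A) RNA libraries of the SN from 3 MitoParks and 3 littermate controls were compared. The authors mapped reads to UCSC transcripts with Bowtie2 2.1.0, ran RSEM 1.2.15, and the deposited values are its expected counts per gene, not normalized. The submitters' processing notes name a human genome build, and no mouse build is given in the sources used here, so coordinates are printed only with promoter sequences, which are RefSeq's.

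Expected counts were rounded, the 14568 of 24054 genes whose mean CPM exceeded 1 in either group were tested, and edgeR 4.0.16 in R 4.3.3 fitted TMM-normalized counts by quasi-likelihood with the group as the only term. A call took a fold change above 1.5 with p below 0.05 before adjustment, the cutoffs that the methods give for the edgeR analysis of the SN, where no adjustment is named. Another paragraph of the methods names an adjusted p for RPKM values of a different alignment. Benjamini-Hochberg adjustment ran over the 14568 genes. Exact permutation tests used log2(CPM + 0.1). RPKM here are raw expected counts over the library total and GENCODE M21 transcript length. Of the 60 values of the 10 genes, 58 were whole numbers. Columns named Treat were taken as the samples titled PD, by number. The procedure was tested on simulated data.

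The 10 genes, the partner lists and the ratios were chosen with earlier results of these data known. The text names all 10 genes, and per list the genes with the highest and lowest log2 fold change and any with p below 0.05 before adjustment. Others are marked. From the partner lists, 1 gene is not reported here and is in none of their counts, which therefore do not describe the full lists. Within groups, chi-square per degree of freedom of mouse pairs was 9.68 or more, so each mouse counted as 1 replicate. Whether mice came from separate litters is not known here. Alternatives were other edgeR tests, DESeq2 1.42.0, limma-voom 3.58.1, other normalizations and filters, unrounded counts, a replicate block and each mouse left out.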

Additional observations from a re-analysis of the deposited data

How the results depend on the processing

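Under the 20 alternatives, 0 of the 10 genes were called and 0 reached an unadjusted p below 0.05, also with each mouse left out. The smallest p was 0.076 (Fundc1, edgeR's quasi-likelihood test without MitoPark 2). In that fit 657 genes had p below 0.05 before adjustment, beside 161 with all mice. With each mouse left out in turn, log2 fold changes ranged from -0.0052 to 0.1974 for Mfn1, -0.0275 to 0.0782 for Mfn2, -0.1376 to 0.0504 for Opa1, -0.0912 to 0.1009 for Fis1, -0.1491 to 0.0173 for Mff and -0.1174 to 0.1481 for Bnip3l, so the direction of these 6 rested on single mice. With the 3 shallower against the 3 deeper libraries as a term, chosen after the data were seen, Opa1 was at 0.0079, Bnip3 at 0.0238 and Bnip3l at 0.0802. Oma1, Dnm1l and Fundc1 kept their direction under every alternative. Within the shallower and within the deeper libraries, however, Oma1 differed by 0.6589 and -0.1249 on the log2(CPM + 0.1) scale, MitoParks minus littermate controls. For Dnm1l these differences were -0.1848 and 0.099.

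Across the table, 84 genes were called, 176 with no filter on low counts and 31 with a mean CPM above 5, where fewer genes were tested, and 62 to 219 with each mouse left out (219 without littermate control 3, 217 without MitoPark 2). Of the partner genes reported here, 0 were called in the quasi-likelihood test and under each of the 20 alternatives. For the counts across the table, the cause of the other shifts was not tested.

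Same-numbered mice deviated together with correlations of 0.31, -0.07 and 0.24 over all tested genes, and 4 of 6 mice correlated best with their own number. The labels used here name no pairs, so the numbers were not taken as pairs, and these values do not settle whether they are. With the replicate block, 126 genes and 0 of the 10 were called. Before adjustment, 323 genes had p below 0.05 in edgeR's quasi-likelihood test with the block and 161 without it. With the block, 1 gene had an adjusted p below 0.05.

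Exact permutation p-values of the 10 genes were the same with log2(CPM + 1). Shortest transcripts raised RPKM for 8 genes beyond the SD over mice. Counting error was largest for Oma1.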
